A study of Mus musculus with 92 samples.

Results

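The ISG15 conjugation system was followed in mouse myeloid cells through 5 genes, Isg15, Uba7, Ube2l6, Herc6 and Usp18. They were chosen by name, for their roles in attaching ISG15 to proteins and taking it off again, and make up 5 of the 29956 named genes that were measured. RNA was sequenced in bulk in 92 libraries of 25 groups, from bone marrow, from cultured marrow cells and ER-Hoxb8 cells, and from brain. ER-Hoxb8 cells are marrow progenitors that an estrogen-dependent Hoxb8 fusion protein holds immature, and that mature once estrogen is withdrawn.

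ISG15 is a small ubiquitin-like protein that cells make after exposure to type I interferon, and like ubiquitin it is joined to other proteins by a chain of enzymes. Uba7 is the activating enzyme (E1), Ube2l6 the carrier (E2), and Herc6 the ligase that attaches ISG15 to its targets in mouse cells (E3). Usp18 is the protease that removes ISG15, and it also restrains signalling at the type I interferon receptor. In macrophages and microglia all members are known interferon-stimulated genes (ISGs).

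Mice were of the FVB strain. BM progenitors and BM monocytes (n = 3 each) were taken from wild-type (WT) bone marrow, and BMD macrophages (n = 3) were WT marrow cells kept for 7 days in M-CSF, the factor that drives macrophage growth. ER-Hoxb8 progenitors (n = 3) carried 1 Cas9 allele (Cas9 het) and were grown in beta-estradiol and GM-CSF. ER-Hoxb8 cells at 4 days (n = 3) and ER-Hoxb8 macrophages at 7 days (n = 3), both Cas9 het as well, had been moved to M-CSF. Microglia-like cells (MLCs) are cells that were injected into the brain of a CSF1R KO mouse, a host without microglia of its own, and sorted out again. BMD MLCs (n = 6) and ER-Hoxb8 MLCs (n = 6) are both labelled WT, so ER-Hoxb8 MLCs and ER-Hoxb8 macrophages differ in labelled genotype as well as in place. Library names split the ER-Hoxb8 MLCs into 3 GFPHox and 3 WTHox libraries. Those of BMD macrophages begin with Mac in replicates 1 and 2 and with wBM in replicate 3. Microglia (n = 9) came from uninjected WT mice, and the names of 2 of these libraries begin with YSWT. Ages of the mice and the time spent in the brain are not in the labels.

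NTC cells are Cas9 het ER-Hoxb8 cells transduced with a non-targeting guide, and Adar1 KO cells are the same cells with a guide against Adar, the gene of the RNA-editing enzyme ADAR1. The transduced cells were used as pools. They were sequenced as progenitors (NTC, sgRNA 1 and sgRNA 2, n = 3 each) and as macrophages after 7 days (NTC n = 3, sgRNA 1 n = 3, sgRNA 2 n = 5). NTC and Adar1 KO sgRNA 1 macrophages were also grown for 7 days with 0, 0.0006, 0.016, 0.4 or 10 µM baricitinib (n = 3 or 4 each). This drug inhibits the kinases JAK1 and JAK2, and the study used it to inhibit interferon signalling. These doses are those of the sample titles. The treatment protocol gives 0.00064 µM for the lowest dose above 0 and 0.16 µM for the next one, so the dose called 0.016 µM here is uncertain by a factor that the labels do not settle.

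Levels are log2 CPM, where CPM scales the reads of a gene by the size of its library after TMM adjustment, with a small offset taken as 2 reads. A gene without reads therefore sits at a lowest value that depends on depth, and libraries that share this value were normalized together. They fall into 6 such sets. The files hold no read counts, so the mean depth of a set is an estimate from its lowest value and that offset. BM progenitors, BM monocytes, ER-Hoxb8 progenitors and the 4-day cells form the marrow set (12 libraries, estimated depth 40.6 M reads), and cultured BMD and ER-Hoxb8 macrophages, MLCs and microglia form the brain set (27 libraries, 24.5 M). NTC and sgRNA 1 cells form the knockout set (11 libraries, 21.5 M), except for NTC macrophages replicate 2, which is alone in its set (17.1 M). The sgRNA 2 libraries (8, 23.6 M) and the baricitinib libraries (33, 13.7 M) are sets of their own. Levels were compared only within a set, apart from an alternative that added NTC macrophages replicate 2 to the fit of the knockout set. Log2FC are differences of means on this scale, which understates the change of genes near the lowest value. A gene entered a fit if 3 or more of its libraries (6 or more in the brain set) exceeded 1 CPM once the offset was taken off. Tests were made with limma, a linear model in which genes share information on spread, and a gene was called changed at a Benjamini-Hochberg adjusted p below 0.05.

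All 5 members passed this filter in every fit. Usp18 lay below 1 CPM in all 6 progenitor libraries of the knockout set and passed there through the macrophages. Isg15 passed through the macrophages in the sgRNA 2 set, where its progenitor libraries did not all exceed 1 CPM without the offset. No member was at the lowest value in any of the 92 libraries. Nothing in the labels says that replicates were separate cultures or animals, so p-values measure only the spread between these samples. The paper calls the marrow, cultured BMD and ER-Hoxb8, and brain groups biological replicates, and the baricitinib cultures independently differentiated. In bulk RNA, fewer cells of a type and less RNA per cell cannot be told apart. In the RefSeq annotation, Isg15 overlaps the noncoding gene Gm46878, Herc6 the pseudogene Gm19244 and Usp18 the noncoding gene Gm44148. These are overlaps of whole genes, introns included, while reads were assigned to transcripts by sequence. Whether such pairs share transcript sequence was not examined, so the levels of these 3 members are uncertain to that extent. Uba7 and Ube2l6 overlap no annotated gene.

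Promoter sequences were found for 4 of the 5 members, as the 250 bases before the annotated start in RefSeq, build GRCm38.p6. The promoter table held no entry for Usp18. Because the members moved together in several comparisons, the windows were searched on both strands for GAAANNGAAA, the core of the interferon-stimulated response element, and for TTCNNNGAA, the core of the gamma-activated sequence. The 2 motifs can share bases. Isg15 held 3 matches to GAAANNGAAA, which overlap one another and begin 78, 72 and 66 bases before the start. Of the 32851 promoters of this length, 978 (2.98%) held this motif, and 2306 (7.02%) held TTCNNNGAA, which was not found in any of the 4 windows. The Isg15 window (chr4:156200819-156201068, minus strand) is shown for its matches, in capitals, and that of Ube2l6 (chr2:84798578-84798827, plus strand), a gene whose levels followed those of Isg15 closely under baricitinib, for contrast.
Isg15: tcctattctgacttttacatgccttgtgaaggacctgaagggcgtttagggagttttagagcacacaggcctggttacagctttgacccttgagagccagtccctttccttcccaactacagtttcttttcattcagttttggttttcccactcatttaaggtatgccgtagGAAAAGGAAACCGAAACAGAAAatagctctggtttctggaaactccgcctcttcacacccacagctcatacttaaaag
Ube2l6: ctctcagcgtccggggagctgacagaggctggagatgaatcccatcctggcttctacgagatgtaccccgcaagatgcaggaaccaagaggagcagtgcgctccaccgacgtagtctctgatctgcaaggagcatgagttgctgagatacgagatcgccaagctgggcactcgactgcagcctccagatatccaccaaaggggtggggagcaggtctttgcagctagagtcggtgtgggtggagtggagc
Neither motif occurs in the windows of Ube2l6, Uba7 and Herc6. This says only that these letters are not in these 250 bases.

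Adar itself was looked at first. Its RNA stood at 6.96, 7.15 and 7.01 log2 CPM in Adar1 KO sgRNA 1 macrophages and at 5.73 and 5.67 in NTC macrophages, so it was higher in the cells labelled KO (Log2FC 1.34, SE 0.21, adjusted p = 0.000976). In progenitors it was 4.36, 4.23 and 4.24 under sgRNA 1 against 4.20, 3.42 and 4.28 in NTC cells, and did not pass the test (0.31, adjusted p = 0.924). Among baricitinib macrophages it was higher in Adar1 KO cells at 0 µM (1.85, adjusted p = 0.0051) and lower at 10 µM (-1.36, adjusted p = 0.0146). A small change that Cas9 leaves in the DNA need not lower the RNA of a gene, and the RNA level therefore does not check the guide. The study reports editing of the target DNA for both Adar1 guides by TIDE, which decomposes sequencing traces. Adar also overlaps the coding gene Chrnb2 in the annotation. Groups are called by their labels throughout.

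In Adar1 KO sgRNA 1 macrophages all 5 members were higher than in NTC macrophages. The protease Usp18 rose 42.0-fold, the modifier Isg15 25.9-fold and the ligase Herc6 10.7-fold, while the carrier Ube2l6 rose 6.54-fold and the activating enzyme Uba7 1.73-fold (n = 3 against 2). By limma, 5 of 5 members changed, all higher, and 21.8% of genes changed in either direction. The median Log2FC of the members was 3.42, against 0.05 over all genes tested. Under the study's rule for DEGs, which adds a Log2FC of at least 2 in size, 4 of the 5 were DEGs, all but Uba7.

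Isg15 stood at 8.79, 8.19 and 7.23 log2 CPM in the Adar1 KO macrophages and at 3.50 and 3.25 in the NTC macrophages. Every KO library lay above both NTC libraries, with a gap wider than the spread of the KO libraries (Log2FC 4.69, SE 0.36, adjusted p = 4.17e-06). Uba7 was 8.35, 8.00 and 7.85 in KO and 7.36 and 7.20 in NTC macrophages. This E1 was the member with the smallest difference, still without overlap (0.79, SE 0.15, adjusted p = 0.00278). Ube2l6 was 9.75, 9.32 and 8.73 in KO and 6.60 and 6.52 in NTC macrophages. Again no KO library came near the NTC libraries (2.71, SE 0.23, adjusted p = 9.26e-06). Herc6 was 8.57, 8.01 and 7.39 in KO and 4.70 and 4.44 in NTC macrophages. The ligase too was apart in each library (3.42, SE 0.28, adjusted p = 6.22e-06). Usp18 was 9.68, 9.38 and 8.59 in KO and 3.95 and 3.70 in NTC macrophages. It had the largest difference of the members (5.39, SE 0.33, adjusted p = 7.83e-07), and KO replicate 3 was the lowest of the 3 KO libraries for each member.

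The NTC macrophage library that was normalized alone had 3.41 for Isg15, 7.05 for Uba7, 6.56 for Ube2l6, 4.24 for Herc6 and 3.66 for Usp18, on its own scale. It was left out of the tests given here and was added to the fit as an alternative. In the compared libraries all 10 macrophage markers were above the lowest value, and their summed level was 68064 to 75307 CPM in KO and 71296 to 87280 CPM in NTC macrophages, with Lyz2 the most abundant. The 6 neutrophil markers summed to 69.1 to 82.6 CPM in KO and 10.8 to 15.4 CPM in NTC macrophages, nearly all from S100a8, with S100a9 at the lowest value in all KO and Ngp in all NTC libraries. The 6 markers of endothelium summed to 102 to 142 CPM in KO and 37.4 to 48.2 CPM in NTC macrophages, mostly Flt1, with Cldn5 at the lowest value. The 10 microglia markers summed to 624 to 667 CPM in KO and 352 to 494 CPM in NTC macrophages, the 6 progenitor markers to 5.26 to 12.3 and 1.79 to 2.57 CPM (Cd34, with Kit at the lowest value), and the 6 oligodendrocyte markers to 28 to 34.6 and 63 to 65.1 CPM (Mbp, with Mog at the lowest value). B cell markers summed to 12.4 to 13.9 CPM in KO and 15.7 to 22.8 CPM in NTC macrophages. T cell markers summed to 1.9 to 2.09 and 0.822 to 1.11 CPM, and neuron markers to 0.102 to 0.15 and 0 to 0.0339 CPM. The part of these lists in the result was not tested.

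**Figure D1:**
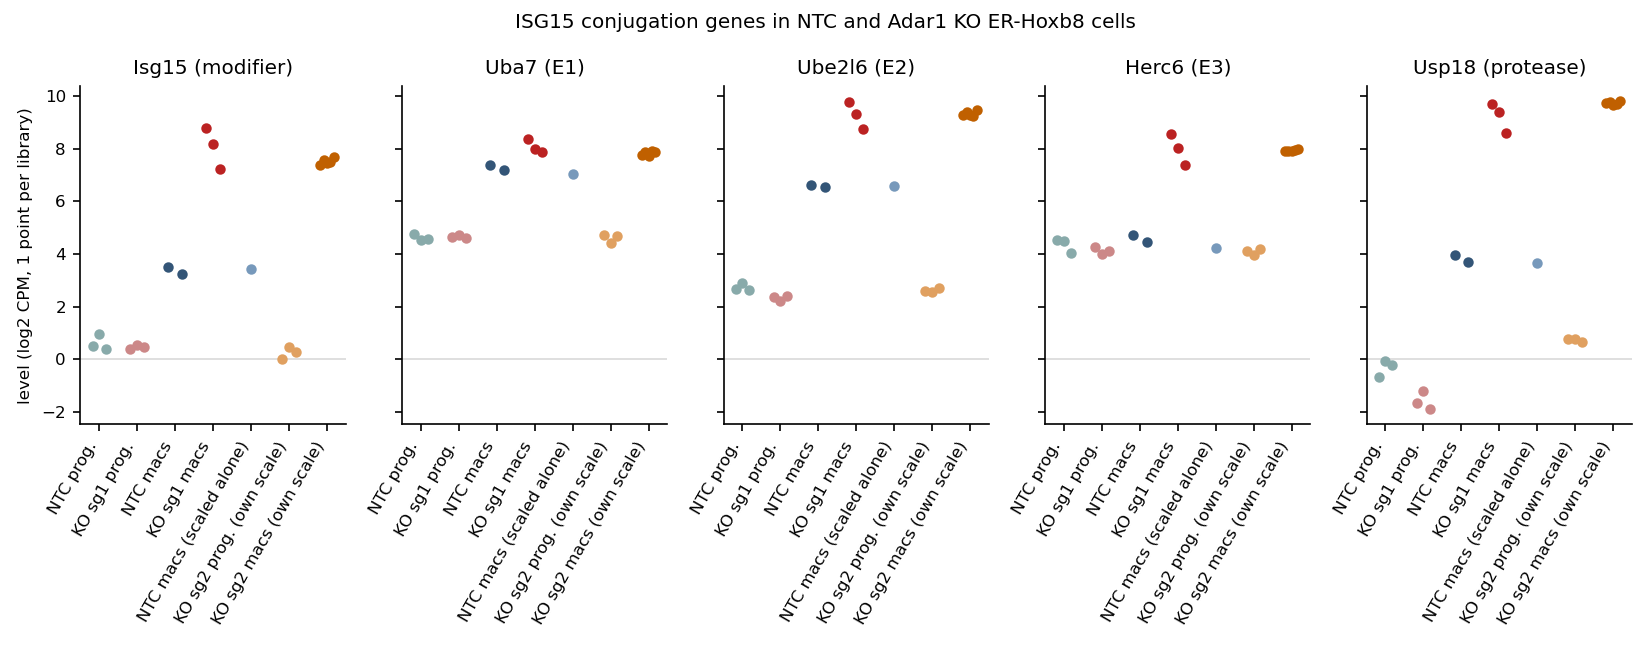
Levels of the 5 members (log2 CPM, 1 point per library) in progenitors and macrophages of NTC and Adar1 KO cells, with sgRNA 2 and NTC macrophages replicate 2 on the scale of their own sets. In the knockout set the Adar1 KO macrophages lie above the NTC macrophages for each member, for Usp18 at 8.59 to 9.68 against 3.70 to 3.95.

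Genes around the members were counted by lists, beside 21.8% of all genes changed. Of 9 tested genes otherwise tied to ISG15 conjugation, 3 rose in Adar1 KO macrophages and 0 fell (median 0.13): Trim25, a ligase of the antiviral RNA sensing pathway (1.37, SE 0.23, adjusted p = 0.00164), Itgb2, a leukocyte integrin chain (0.66, SE 0.13, adjusted p = 0.00454), and Usp14, a proteasome-bound protease (0.35, SE 0.09, adjusted p = 0.0214). Of 7 tested genes of interferon reception and signalling, 4 rose and 1 fell (median 1.43). The transcription factors Stat2 (2.51, SE 0.46, adjusted p = 0.0026) and Irf9 (1.43, SE 0.21, adjusted p = 0.000629) were among those that rose, and the receptor chain Ifnar1 was the one that fell (-0.62, SE 0.18, adjusted p = 0.0292). Ifnb1, the gene of interferon beta, was at 2.08, 1.55 and 0.09 log2 CPM in KO macrophages and at -3.43 and -2.28 in NTC macrophages, and was not tested, since without the offset only 2 of these libraries exceeded 1 CPM. Of related systems, 2 of 8 E1 enzymes of other modifiers rose (median 0.11), 1 of 8 E2 enzymes (0.17) and 2 of 11 genes of ubiquitin and other modifiers (0.17), with 0 lower in each. Of 4 other HERC genes 0 rose and 1 fell (median -0.41), namely Herc4 (-0.75, SE 0.17, adjusted p = 0.00773).

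In progenitors no difference between the genotypes passed the test for any member. Isg15 was 0.38, 0.55 and 0.46 log2 CPM in Adar1 KO sgRNA 1 progenitors and 0.52, 0.94 and 0.39 in NTC progenitors, which overlap. Uba7 (4.64, 4.70 and 4.61 against 4.76, 4.52 and 4.56) and Herc6 (4.26, 4.01 and 4.12 against 4.52, 4.50 and 4.04) overlapped too. Ube2l6 was 2.35, 2.21 and 2.41 in KO and 2.65, 2.88 and 2.61 in NTC progenitors. Usp18 was -1.65, -1.22 and -1.89 in KO and -0.68, -0.07 and -0.22 in NTC progenitors. For these last 2 genes every KO library was below every NTC library, with a Log2FC of -0.39 (adjusted p = 0.887) and -1.26 (adjusted p = 0.0965). By limma 0 of 5 members changed, with 1 at an unadjusted p below 0.05 (Usp18), and 0.936% of genes changed. None of the 6 lists of related genes had a gene that changed. Both progenitor groups had the markers of progenitors, whose 6 genes summed to 13842 to 19787 CPM in KO and 18780 to 26906 CPM in NTC cells, with Mpo the most abundant.

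Most genes changed between progenitors and macrophages in both genotypes, so the counts of members there lie near the share of all genes and are not particular to the members. Usp18 entered this fit only through the macrophages, so it is left out of the counts in this paragraph and its values are given beside them. From NTC progenitors to NTC macrophages 3 of the 4 other members rose, by 2.76 for Isg15, 2.66 for Uba7 and 3.85 for Ube2l6, and 71.8% of genes changed. Herc6 did not pass the test there (0.22, adjusted p = 0.495). From Adar1 KO sgRNA 1 progenitors to their macrophages 4 of the 4 rose, by 7.61 for Isg15, 3.42 for Uba7, 6.94 for Ube2l6 and 3.86 for Herc6, and 71.3% of genes changed. The steps of Usp18 were 4.15 and 10.80, understated by the offset because it lay near the lowest value in progenitors. The difference between both genotypes was tested itself: the Adar1 KO effect was larger in macrophages than in progenitors for 4 of these 4 members, where 13.6% of genes had a difference. It was 4.85 for Isg15 (SE 0.48, adjusted p = 6.24e-05), 3.64 for Herc6 (SE 0.37, adjusted p = 7.19e-05), 3.09 for Ube2l6 (SE 0.31, adjusted p = 6.87e-05) and 0.75 for Uba7 (SE 0.20, adjusted p = 0.0272). For Usp18 it was 6.65 (SE 0.44, adjusted p = 5.03e-06), and it passed the test in the fit without a filter as well. The Uba7 difference did not pass without sgRNA 1 progenitors replicate 1 or 3, sgRNA 1 macrophages replicate 2, or NTC macrophages replicate 3, with adjusted p of up to 0.0865. These comparisons share libraries.

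The second guide was sequenced without a control in its set, so only macrophages and progenitors under that guide were compared. In sgRNA 2 progenitors Isg15 was 0.02, 0.46 and 0.29 log2 CPM and Usp18 0.77, 0.76 and 0.64. In the 5 sgRNA 2 macrophage libraries Isg15 was 7.39, 7.57, 7.46, 7.50 and 7.68, and Usp18 9.72, 9.75, 9.67, 9.69 and 9.79. No progenitor library came near the macrophages, and the spread within each group was small. Uba7 went from 4.43 to 4.71 in progenitors to 7.72 to 7.92 in macrophages, Ube2l6 from 2.54 to 2.71 to 9.22 to 9.46, and Herc6 from 3.94 to 4.20 to 7.90 to 7.99. By limma Uba7 rose by 3.22, Ube2l6 by 6.70, Herc6 by 3.86 and Usp18 by 9.00. Since 81.3% of genes changed, a rise here is not particular to the members. The step of Isg15 was 7.26. This gene entered the fit only through the macrophages, so it is given beside the others. An effect of sgRNA 2 against NTC was not tested, since these cells are in separate sets.

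At 10 µM baricitinib, the levels of all members but Uba7 in Adar1 KO macrophages overlapped those in NTC macrophages. At 0 µM Isg15 was 6.74, 7.07 and 7.15 log2 CPM in Adar1 KO macrophages and 2.72, 2.68 and 2.94 in NTC macrophages. At 10 µM it was 1.44, 2.36, 1.60 and 1.93 in Adar1 KO and 1.23, 1.64 and 2.20 in NTC macrophages. The genotypes were far apart without the drug and overlapped at its highest dose. Usp18 was 8.46, 8.52 and 8.74 in Adar1 KO and 4.14, 3.40 and 3.49 in NTC macrophages at 0 µM. At 10 µM it was -1.20, -0.76, 0.31 and -1.60 in Adar1 KO and -1.34, -0.28 and -0.72 in NTC macrophages. For the protease the levels at 10 µM were thus below those of untreated NTC macrophages in both genotypes, and close to the lowest value.

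Both low doses left the levels of Adar1 KO macrophages high. At 0.0006 µM Isg15 was 6.76, 7.56 and 7.43 log2 CPM in Adar1 KO and 2.82, 3.18 and 2.50 in NTC macrophages, and at 0.016 µM it was 7.75, 7.73 and 7.29 against 1.05, 2.01, 2.22 and 2.31. Usp18 at 0.016 µM was 9.03, 9.04 and 8.73 in Adar1 KO macrophages and 1.27, 1.49, 1.67 and 1.23 in NTC macrophages, where every library was below every untreated NTC library. At 0.4 µM the Adar1 KO libraries split. Isg15 was 1.80 and 3.37 in replicates 1 and 3 and 10.58 in replicate 2, and Usp18 was 0.28 and 3.03 against 11.41. In NTC macrophages at 0.4 µM Isg15 was 1.72, 1.61, 1.82 and 2.07 and Usp18 0.01, 0.13, -0.15 and -1.39.

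**Figure D2:**
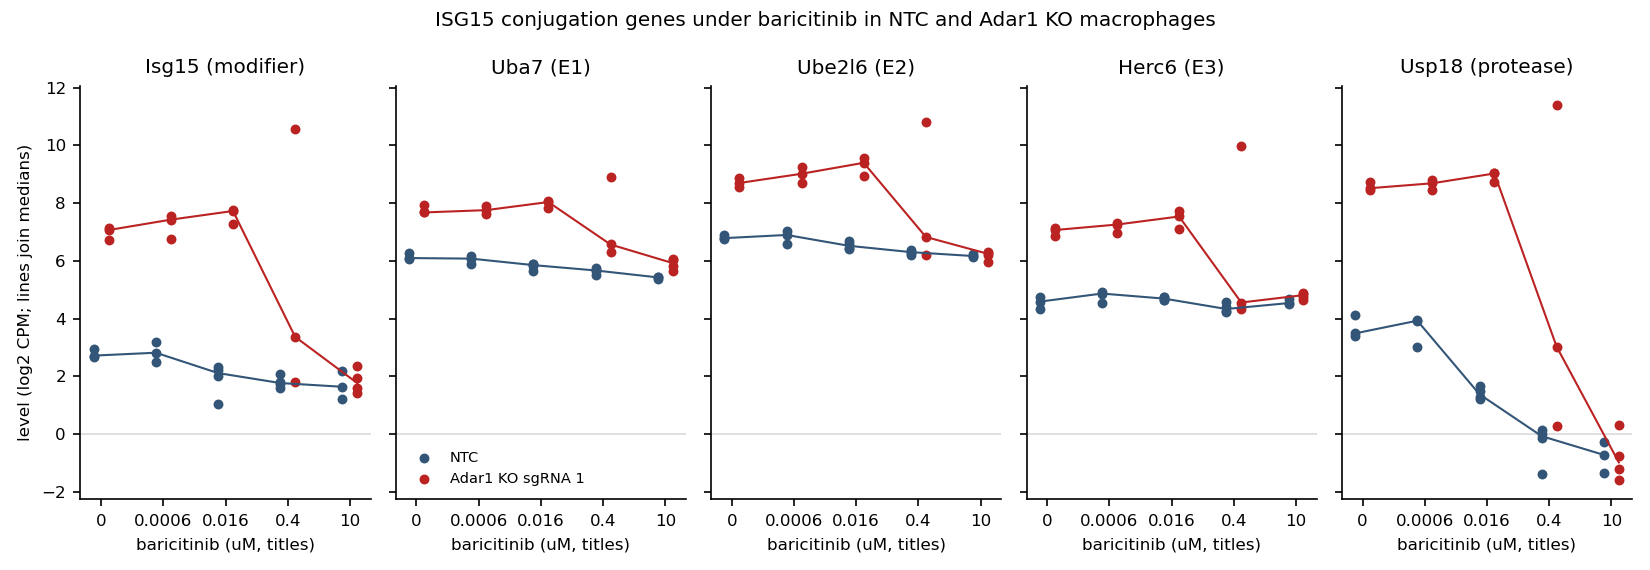
Levels of the 5 members (log2 CPM, 1 point per library, lines through the medians) by baricitinib dose as given in the sample titles (µM), in NTC and Adar1 KO sgRNA 1 macrophages. The genotypes overlap at 10 µM for each member but Uba7, and Adar1 KO replicate 2 at 0.4 µM lies above all other libraries, at 10.58 for Isg15.

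Replicate 2 at 0.4 µM stood apart for each member. Uba7 was 8.90 log2 CPM there against 6.32 and 6.57, Ube2l6 10.81 against 6.22 and 6.83, and Herc6 9.97 against 4.34 and 4.56. Each of these values was the highest of its gene among the 33 libraries. Ifnb1 was 6.02 in this library, against -2.78 and -2.29 in replicates 1 and 3. Its macrophage markers summed to 47370 CPM, against 55630 and 53978 CPM for Adar1 KO sgRNA 1 macrophages 0.4 uM baricitinib replicate 1 and Adar1 KO sgRNA 1 macrophages 0.4 uM baricitinib replicate 3, with Adar1 KO sgRNA 1 macrophages 0.4 uM baricitinib replicate 2 being the lowest. Why this library differs was not tested. Because all 33 libraries share one spread in the fit, it widened the errors of each comparison here, and results are given with it and without it.

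Between genotypes, all members were higher in Adar1 KO macrophages at doses up to 0.016 µM, and 4 of them at 0.4 µM in the fit of all doses. At 0 µM 5 of 5 members were higher, with 25.3% of genes changed: Isg15 by 4.20 (SE 1.07, adjusted p = 0.00463), Uba7 by 1.62 (SE 0.33, adjusted p = 0.000633), Ube2l6 by 1.90 (SE 0.57, adjusted p = 0.0144), Herc6 by 2.46 (SE 0.72, adjusted p = 0.0124) and Usp18 by 4.90 (SE 1.34, adjusted p = 0.00762). At 0.0006 µM the count was again 5 of 5 (29% of genes), with 4.41 for Isg15 and 5.01 for Usp18. At 0.016 µM it was 5 of 5 (32.2% of genes), with 5.69 for Isg15 and 7.52 for Usp18. The genotypes did not overlap for any member at these 3 doses. At 0.4 µM 4 of 5 were higher (13.5% of genes), among them Isg15 by 3.45 (adjusted p = 0.0227) and Usp18 by 5.25 (adjusted p = 0.00596), and Herc6 was not (1.92, adjusted p = 0.0565). With only the 2 groups compared the count at 0.4 µM was 0 of 5. Ube2l6 lost its call at 0.4 µM without any one of the 4 NTC libraries of that dose. With the fold limit of the study's rule as well, and Adar1 KO replicate 2 at 0.4 µM in the fit, 3 of 5 members were DEGs at 0 µM, where 3.87% of genes were, and 2 of 5 at 0.4 µM, Isg15 and Usp18, where 1.78% were. At 10 µM 0 of 5 members changed by limma, with 0 at an unadjusted p below 0.05, although 45.3% of genes did. The members' Log2FC were 0.14 for Isg15, 0.49 for Uba7, 0.00 for Ube2l6, 0.21 for Herc6 and -0.03 for Usp18. Marker lists also separated the genotypes at 0 µM, without overlap. In Adar1 KO macrophages the lists of monocytes (2245 to 3463 against 5040 to 6134 CPM in NTC), oligodendrocytes, neutrophils and erythroid cells were lower. The oligodendrocyte list summed to 31.5 to 40.9 against 53.7 to 64.9 CPM. Those of endothelium (70.7 to 88.5 against 51.3 to 55.7 CPM), B cells, T cells and progenitors were higher. For the neutrophil and B cell lists the genotypes differed the other way in the knockout set. The part of these lists in the genotype difference was not tested.

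Without Adar1 KO replicate 2 at 0.4 µM, the counts over NTC were 5 of 5 at 0 µM (30.8% of genes), 5 of 5 at 0.0006 µM (33.7%) and 5 of 5 at 0.016 µM (36.8%). At 0.4 µM, in the fit of the other 32 libraries, 2 of 5 members were then higher (6.61% of genes), Uba7 by 0.79 (SE 0.12, adjusted p = 5.74e-05) and Usp18 by 2.00 (SE 0.51, adjusted p = 0.0141). Isg15 (0.78, adjusted p = 0.21), Ube2l6 (0.22) and Herc6 (0.08) were not. At 10 µM 1 of 5 was higher (50.5% of genes), Uba7 by 0.49 (adjusted p = 0.000393). The calls of Isg15 and Ube2l6 at 0.4 µM thus rested on this library.

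Within Adar1 KO macrophages the drug lowered all members at its highest dose. At 0.0006 µM 0 of 5 members changed against 0 µM by limma (0 at an unadjusted p below 0.05), where 2.34% of genes changed, and at 0.016 µM it was 0 of 5 (0 at an unadjusted p below 0.05) and 6.21%. At 0.4 µM 1 of 5 fell, Usp18 with a Log2FC of -3.67 (SE 1.34, adjusted p = 0.0424), with 26.6% of genes changed. This count was 0 without any one of replicates 1 to 3 at 0 µM or of replicates 1 and 3 at 0.4 µM, and 5 without replicate 2 at 0.4 µM. With only the 2 groups compared, and without a filter on low genes, the count was 0 as well. At 10 µM 5 of 5 members fell, with 65.8% of genes changed: Isg15 with -5.15 (SE 1.01, adjusted p = 6.05e-05), Uba7 with -1.87 (SE 0.31, adjusted p = 7.4e-06), Ube2l6 with -2.51 (SE 0.53, adjusted p = 0.000163), Herc6 with -2.23 (SE 0.67, adjusted p = 0.00492) and Usp18 with -9.39 (SE 1.25, adjusted p = 2.25e-07). The median of the members was -2.51, against 0.05 over all genes tested.

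Leaving out replicate 2 of the 0.4 µM dose, 0 of 5 members changed in Adar1 KO macrophages at 0.0006 µM by limma (3.65% of genes). At 0.016 µM 1 of 5 changed (10.1% of genes), Ube2l6, which was higher than at 0 µM by 0.59 (adjusted p = 0.0151). At 0.4 µM 5 of 5 fell (32.8% of genes), Isg15 with -4.40 (adjusted p = 4.12e-10) and Usp18 with -6.92 (adjusted p = 8.98e-11). At 10 µM 5 of 5 fell (68.8% of genes).

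In NTC macrophages the drug acted on a lower starting level, and Usp18 moved most. Against 0 µM, 0 of 5 members changed by limma at 0.0006 µM (0% of genes, 0 members at an unadjusted p below 0.05), 0 of 5 at 0.016 µM (0% of genes, 0 members at an unadjusted p below 0.05) and 0 of 5 at 0.4 µM (0.00897% of genes, 1 member at an unadjusted p below 0.05). At 10 µM 1 of 5 fell (13.8% of genes), Usp18 with -4.46 (SE 1.34, adjusted p = 0.026). This call was lost without any one of the 3 libraries at 0 µM or of the 3 at 10 µM. It was also lost without a filter on low genes, and with log2(CPM + 1) as the scale. Usp18 lay at -1.34 to -0.28 log2 CPM in the NTC libraries at 10 µM, below 1 CPM in each. The other Log2FC at 10 µM were -1.09 for Isg15, -0.74 for Uba7, -0.62 for Ube2l6 and 0.02 for Herc6, and for Isg15, Uba7 and Ube2l6 every library at 10 µM was below every library at 0 µM.

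The NTC counts grew when Adar1 KO replicate 2 at 0.4 µM was left out, since the shared spread became smaller. At 0.0006 µM 0 of 5 members changed (0% of genes), and at 0.016 µM 1 of 5 fell (0.152% of genes), Usp18 with -2.26 (adjusted p = 0.0381). At 0.4 µM 2 of 5 fell (0.628% of genes), Uba7 with -0.50 (adjusted p = 0.0165) and Usp18 with -4.03 (adjusted p = 2.74e-06). At 10 µM 4 of 5 fell (20.9% of genes), Isg15 with -1.09 (adjusted p = 0.0204), Uba7 with -0.74 (adjusted p = 3.87e-05), Ube2l6 with -0.62 (adjusted p = 0.00422) and Usp18 with -4.46 (adjusted p = 2.41e-07). Herc6 was the exception. Its levels in NTC macrophages were 4.34 to 4.75 log2 CPM at 0 µM and 4.52 to 4.69 at 10 µM, which overlap.

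Whether the drug acted differently in both genotypes was tested as a difference of effects. It was 0 of 5 members by limma at 0.0006 µM (0% of genes), 0 of 5 at 0.016 µM (0.00897%) and 0 of 5 at 0.4 µM (4.76%), with 0 members at an unadjusted p below 0.05 for each. At 10 µM 3 of 5 members fell further in Adar1 KO than in NTC macrophages (39.5% of genes had a difference), Isg15 with -4.06 (SE 1.47, adjusted p = 0.0297), Uba7 with -1.14 (SE 0.46, adjusted p = 0.0494) and Usp18 with -4.93 (SE 1.83, adjusted p = 0.0337). Ube2l6 (-1.89, adjusted p = 0.0543) and Herc6 (-2.25, adjusted p = 0.0704) did not pass. Without a filter the count was 0 of 5. Uba7 lost its call whichever 1 of the 13 libraries was left out, with adjusted p of up to 0.105, and also with the replicate number as a block. Usp18 lost its call in 9 of these 13 fits and Isg15 in 3. The count was 0 without NTC replicate 2 at 0 µM, NTC replicate 3 at 10 µM or Adar1 KO replicate 2 at 0 µM. It was 1 without NTC replicate 3 at 0 µM, NTC replicate 2 at 10 µM, Adar1 KO replicates 1 or 3 at 0 µM or Adar1 KO replicates 1 or 4 at 10 µM, each left out alone.

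Without Adar1 KO replicate 2 at 0.4 µM the differences of the drug effect were clearer. They concerned 0 of 5 members at 0.0006 µM (0% of genes) and 0 of 5 at 0.016 µM (0.0448%). At 0.4 µM all 5 of 5 fell further in Adar1 KO macrophages (13.7% of genes), Isg15 with -3.42, Uba7 with -0.83, Ube2l6 with -1.67, Herc6 with -2.38 and Usp18 with -2.90. At 10 µM it was 5 of 5 as well (44.6% of genes), with adjusted p of 7.22e-08 for Isg15, 1.31e-06 for Uba7, 4.85e-08 for Ube2l6, 1.26e-09 for Herc6 and 1.03e-06 for Usp18. The dose comparisons within a genotype share their 0 µM libraries.

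Of the 8 tested genes of interferon reception and signalling, 3 were higher and 1 lower in Adar1 KO macrophages at 0 µM (median 1.01), beside 25.3% of all genes, with Stat2 at 2.79 (SE 0.69, adjusted p = 0.00372). At 10 µM over 0 µM in Adar1 KO macrophages 4 of the 8 fell and 2 rose (median -1.39), beside 65.8% of all genes, among those that fell Stat2 with -5.26 (SE 0.65, adjusted p = 6.21e-08) and Irf9 with -3.17 (SE 0.39, adjusted p = 5.18e-08). The 8 include Ifnb1, which passed the filter only through Adar1 KO libraries. It stays in the counts and medians of this list, so neither these nor its fall are read as a result. In NTC macrophages 1 of the 8 fell at 10 µM, Irf9 with -2.10 (SE 0.41, adjusted p = 0.00127), and 0 rose, which is about the share of all genes (13.8%). The 10 µM effect differed between the genotypes for Stat2 (-4.11, adjusted p = 0.00122), where 39.5% of all genes had a difference. Of 9 other genes tied to ISG15 conjugation, 4 fell and 3 rose at 10 µM in Adar1 KO macrophages (median -0.25), among them Trim25 with -1.63 (SE 0.27, adjusted p = 6.41e-06). Among all 11152 genes tested, 3780 were higher and 3561 lower at 10 µM in Adar1 KO macrophages. Of other E1 enzymes 6 of 8 were higher and 2 lower (median 0.57), and 7 of 8 E2 enzymes higher and 1 lower (0.64). Of ubiquitin and other modifiers 6 of 11 were higher and 5 lower, and of other HERC genes 0 of 4 were higher and 1 lower. Macrophage markers summed to 57866 to 64131 CPM in Adar1 KO macrophages at 0 µM and 40851 to 61677 CPM at 10 µM, and to 62980 to 67740 and 44565 to 48635 CPM in NTC macrophages, with Lyz2 on top.

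Other marker lists differed between 0 µM and 10 µM as well. In Adar1 KO macrophages the monocyte list summed to 2245 to 3463 CPM at 0 µM and then 5044 to 5693 CPM at 10 µM, mostly Cd14, and the microglia list to 716 to 1105 and then 1666 to 2079 CPM, with Sall1 at the lowest value at 0 µM. The neutrophil list summed to 54.1 to 67.6 and then 69.4 to 147 CPM (S100a8, with S100a9 at the lowest value), and the progenitor list to 1.9 to 3.42 and then 11.1 to 14.6 CPM (Cd34, with Elane at the lowest value). Lower sums at 10 µM were found for endothelium, 70.7 to 88.5 and then 31.1 to 39.4 CPM (Flt1, with Cldn5 at the lowest value), for B cells, 10.4 to 26.1 and then 0.921 to 3.86 CPM (Cd22, with Pax5 at the lowest value), and for astrocytes, 4.76 to 8.67 and then 0.29 to 2.75 CPM (Aldh1l1, with Aqp4 and Gja1 at the lowest value). The ranges of these lists do not overlap between the doses.

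In NTC macrophages, ranges without overlap that were higher at 10 µM were those of the monocyte list, 5040 to 6134 and then 6709 to 7249 CPM, the microglia list, 876 to 945 and then 1207 to 1398 CPM, and the T cell list, 1.33 to 1.58 and then 2.28 to 3.4 CPM (Cd5, with Cd3e at the lowest value). Lower ones, besides the macrophage list, were those of the endothelium list, 51.3 to 55.7 and then 22.4 to 32.6 CPM, the B cell list, 4.68 to 9.78 and then 0.968 to 2.81 CPM, the oligodendrocyte list, 53.7 to 64.9 and then 42.2 to 49.7 CPM (Mbp, with Mog and Cldn11 at the lowest value), and the astrocyte list, 7.98 to 9.46 and then 4.11 to 5.99 CPM. The part of the marker lists in the results at 10 µM was not tested.

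In cells from the brain, ER-Hoxb8 MLCs had the highest mean level of each member in the brain set. Isg15 ranged from 6.87 to 9.36 log2 CPM with a median of 8.13 in the 6 ER-Hoxb8 MLC libraries, from 2.52 to 3.69 (median 3.14) in BMD MLCs and from 0.60 to 3.07 (median 2.50) in microglia. In cultured macrophages it was 2.89, 2.84 and 3.13 for ER-Hoxb8 and 2.49, 2.03 and 3.34 for BMD cells. All ER-Hoxb8 MLC libraries lay above all other libraries of the set, and the other groups overlapped. Usp18 ranged from 6.69 to 8.60 (median 7.81) in ER-Hoxb8 MLCs, from 3.67 to 4.97 (4.44) in BMD MLCs and from 0.28 to 2.83 (2.53) in microglia, and was 4.62, 4.00 and 3.18 in ER-Hoxb8 and 2.57, 2.41 and 3.97 in BMD macrophages. The protease therefore separated BMD MLCs from microglia as well, which the modifier did not.

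Herc6 ranged from 6.97 to 8.19 (median 7.39) in ER-Hoxb8 MLCs, from 4.48 to 5.33 (4.84) in BMD MLCs and from 4.36 to 5.49 (5.13) in microglia, and was 5.63, 5.12 and 5.49 in ER-Hoxb8 and 5.01, 5.32 and 5.23 in BMD macrophages. For the ligase too, ER-Hoxb8 MLCs were alone at the top. Ube2l6 ranged from 8.40 to 10.03 (median 8.94) in ER-Hoxb8 MLCs, from 6.48 to 8.41 (8.15) in BMD MLCs and from 5.38 to 7.33 (5.72) in microglia, and was 7.31, 6.85 and 7.76 in ER-Hoxb8 and 6.87, 6.44 and 6.82 in BMD macrophages. Both MLC groups just touched. Uba7 ranged from 6.62 to 7.30 (median 6.99) in ER-Hoxb8 MLCs, from 5.93 to 6.86 (6.40) in BMD MLCs and from 4.90 to 6.10 (5.55) in microglia, and was 6.70, 7.19 and 6.70 in ER-Hoxb8 and 5.39, 5.56 and 5.51 in BMD macrophages. For the activating enzyme, cultured ER-Hoxb8 macrophages and ER-Hoxb8 MLCs overlapped.

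**Figure D3:**
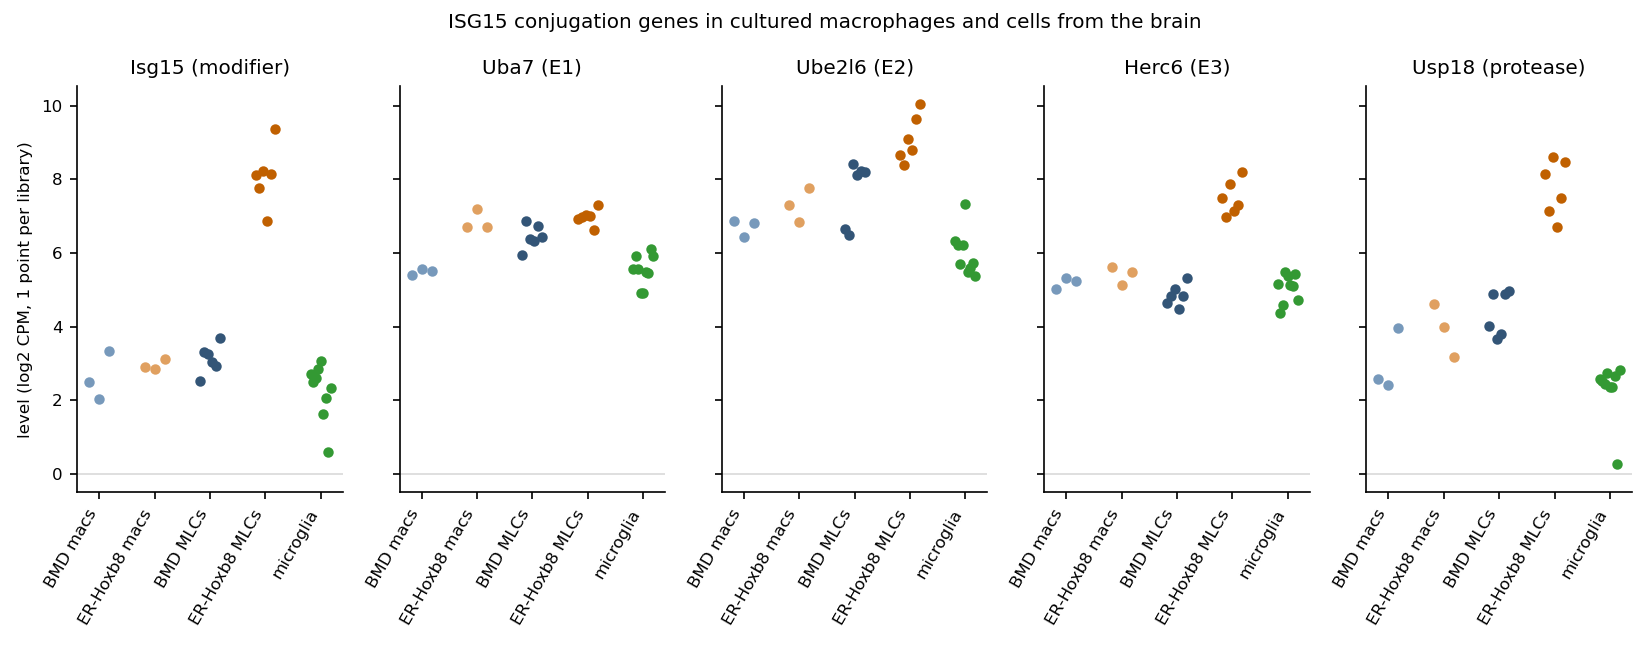
Levels of the 5 members (log2 CPM, 1 point per library) in cultured BMD and ER-Hoxb8 macrophages, in BMD and ER-Hoxb8 MLCs and in microglia, all of 1 normalization set. ER-Hoxb8 MLCs lie apart from the other groups for Isg15 (6.87 to 9.36), Herc6 and Usp18.

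Against BMD MLCs, ER-Hoxb8 MLCs had 4 of 5 members higher, and 15.2% of genes changed. Isg15 was 31.0-fold higher (Log2FC 4.95, SE 0.39, adjusted p = 2.23e-09), Usp18 10.5-fold (3.39, SE 0.42, adjusted p = 2.58e-06), Herc6 6.22-fold (2.64, SE 0.23, adjusted p = 1.01e-08) and Ube2l6 2.69-fold (1.43, SE 0.36, adjusted p = 0.00759), each with n = 6 against 6. Uba7 did not pass (0.53, adjusted p = 0.0856). The median of the members was 2.64, against -0.22 over all genes tested. With the GFPHox libraries alone Ube2l6 did not pass either, and 3 members changed. Against microglia 5 of 5 members were higher in ER-Hoxb8 MLCs (33.9% of genes changed), Isg15 by 5.82 (SE 0.36, adjusted p = 1.46e-12), Uba7 by 1.44 (adjusted p = 1e-06), Ube2l6 by 3.11 (adjusted p = 2.31e-08), Herc6 by 2.46 (adjusted p = 4.52e-10) and Usp18 by 5.45 (adjusted p = 1.59e-11).

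BMD MLCs had 3 of 5 members above microglia, where 20.5% of genes changed: Usp18 by 2.06 (SE 0.39, adjusted p = 0.000264), Ube2l6 by 1.68 (SE 0.33, adjusted p = 0.000393) and Uba7 by 0.91 (SE 0.19, adjusted p = 0.000794). Isg15 was not among them (0.86, adjusted p = 0.0901), nor was Herc6 (-0.18, adjusted p = 0.627). With the fold limit as well 1 of 5 was a DEG, Usp18, and 10.7% of genes were. Both MLC groups were set against the same microglia.

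From culture to brain, ER-Hoxb8 cells gained 4 of 5 members, and 34.8% of genes changed. The cultured ER-Hoxb8 cells are Cas9 het and the ER-Hoxb8 MLCs are labelled WT, so place and labelled genotype cannot be told apart here. Isg15 rose by 5.12 (SE 0.48, adjusted p = 8.4e-09), Usp18 by 3.82 (SE 0.52, adjusted p = 3.85e-06), Herc6 by 2.08 (SE 0.28, adjusted p = 3.52e-06) and Ube2l6 by 1.80 (SE 0.44, adjusted p = 0.00285), while Uba7 did not pass (0.11, adjusted p = 0.764). In BMD cells 2 of 5 rose, and 30.6% of genes changed: Uba7 by 0.96 (SE 0.25, adjusted p = 0.006) and Usp18 by 1.39 (SE 0.52, adjusted p = 0.0437). The count in BMD cells was 1 without BMD macrophages replicate 1 or 2, or BMD MLCs replicate 5 or 6, and Usp18 was the gene that lost its call, as it also did without BMD MLCs replicate 2. With the fold limit as well it was 0 of 5, with 15.9% of genes DEGs. Marker sums differed between culture and brain too. Neutrophil markers summed to 3.21 to 16.1 CPM in BMD macrophages and 4434 to 32953 CPM in BMD MLCs. For ER-Hoxb8 cells they were 9.97 to 37.8 CPM in culture and 237 to 41079 CPM in the brain. Macrophage markers summed to 42970 to 62155 CPM in BMD macrophages and 13727 to 19075 CPM in BMD MLCs. In ER-Hoxb8 macrophages and MLCs they were 59873 to 69180 and 7683 to 29666 CPM. The part of these lists in the gains was not tested.

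The gain in the brain differed between the cell types for 2 of 5 members, and for 3.28% of genes. Labelled genotype changes between culture and brain in ER-Hoxb8 cells only, so its part in this difference cannot be told apart from that of place. Isg15 gained 4.62 more in ER-Hoxb8 than in BMD cells (SE 0.67, adjusted p = 0.000128) and Herc6 2.41 more (SE 0.40, adjusted p = 0.000547). Usp18 (2.44, adjusted p = 0.0666), Ube2l6 (0.83, adjusted p = 0.59) and Uba7 (-0.85, adjusted p = 0.236) did not pass. Microglia replicate 8 stood apart from the other microglia for Usp18, at 0.28 log2 CPM. This library also had the fewest genes above the lowest value among the microglia, 12891 against a median of 16159. Without it the count was 3 of 5 members (5.33% of genes), with Usp18 added (adjusted p = 0.0151). The 4 groups behind this difference do not include microglia, which enter through the shared spread.

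In culture Uba7 was the 1 member whose difference between the cell types passed the test. ER-Hoxb8 macrophages had 1 of 5 members above BMD macrophages, where 1.96% of genes changed: Uba7 by 1.38 (SE 0.29, adjusted p = 0.00753), with every ER-Hoxb8 library above every BMD library. This call was lost without ER-Hoxb8 macrophages replicate 2, and with only the 2 groups compared. Under the fold limit as well the count was 0 of 5, with 1.85% of genes DEGs. The Log2FC of the other members were 0.34 for Isg15, 0.60 for Ube2l6, 0.23 for Herc6 and 0.95 for Usp18.

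Cell type markers differed widely in cells from the brain. All 10 microglia markers were above the lowest value in each brain group, and their summed level was 72048 to 103903 CPM in microglia, 6700 to 22931 CPM in BMD MLCs and 1091 to 13798 CPM in ER-Hoxb8 MLCs. It was 497 to 1041 CPM in BMD and 247 to 918 CPM in ER-Hoxb8 macrophages. The 6 neutrophil markers summed to 4434 to 32953 CPM (median 29837) in BMD MLCs, 237 to 41079 CPM (2056) in ER-Hoxb8 MLCs and 406 to 5862 CPM (1950) in microglia, with Ngp on top. ER-Hoxb8 MLCs replicate 2 held the least of them (237 CPM) and ER-Hoxb8 MLCs replicate 5 the most (41079 CPM). The 10 macrophage markers summed to 13727 to 19075 CPM in BMD MLCs and 7683 to 29666 CPM in ER-Hoxb8 MLCs, the highest in ER-Hoxb8 MLCs replicate 6, which also had the fewest microglia markers (1091 CPM). T cell markers summed to 33.7 to 289 CPM in ER-Hoxb8 MLCs and 7.16 to 101 CPM in BMD MLCs, with Cd3g and Cd3d on top, in this order. Erythroid markers reached 4770 CPM in 1 ER-Hoxb8 MLC library, with Klf1 at the lowest value in all 6, and 580 CPM in BMD MLCs. Endothelium markers summed to 45.4 to 107 CPM in ER-Hoxb8 MLCs, mostly Flt1, and 11.7 to 28.4 CPM in BMD MLCs, mostly Pecam1 with Cldn5 and Tek at the lowest value. Astrocyte markers summed to 22.4 to 57.1 and 11.4 to 19.7 CPM, with Slc1a3 on top and Aqp4 at the lowest value in BMD MLCs, and neither of these lists overlapped between the MLC groups. Oligodendrocyte markers had medians of 147 and 61.8 CPM, with Mbp on top. The part of these lists in the difference between the MLC groups was not tested.

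**Figure D4:**
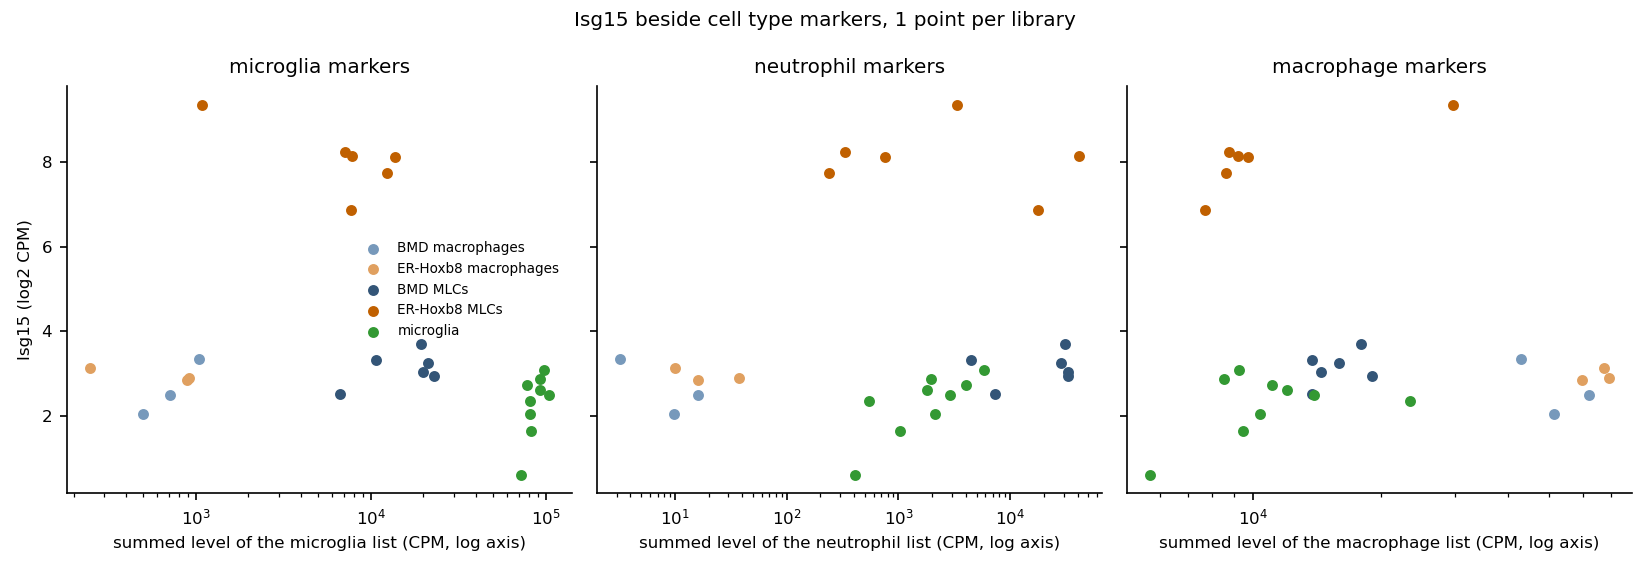
Isg15 (log2 CPM) against the summed CPM (log axis) of the microglia, neutrophil and macrophage marker lists, 1 point per library of the brain set. In ER-Hoxb8 MLC libraries Isg15 was 6.87 to 9.36 and the neutrophil markers 237 to 41079 CPM, and a relation between the axes was not tested.

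Among interferon reception and signalling genes, ER-Hoxb8 MLCs exceeded BMD MLCs for 2 of the 7 tested, beside 15.2% of all genes changed, and were below them for 0 (median -0.28), with Stat2 higher by 2.90 (SE 0.51, adjusted p = 0.000273). Against microglia, where 33.9% of all genes changed, it was 4 above and 0 below (median 1.13), with Irf9 at 1.13 (SE 0.19, adjusted p = 3.3e-05) and Ifnar1 at 1.63 (SE 0.42, adjusted p = 0.0036). Between the MLC groups, again beside 15.2% of all genes, 1 of 9 other genes tied to ISG15 conjugation was higher and 2 lower in ER-Hoxb8 MLCs (median -0.10). Of other E1 enzymes 0 of 9 changed, of E2 enzymes 6 of 8 were higher (median 0.72), of other HERC genes 1 of 4 was lower, and of ubiquitin and other modifiers 4 of 11 were higher (median 0.57).

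In the set of marrow cells and early ER-Hoxb8 cells, the libraries labelled ER-Hoxb8 progenitors were unlike one another in their markers. The paper reports that ER-Hoxb8 progenitors express macrophage genes. ER-Hoxb8 progenitors replicate 1 and ER-Hoxb8 progenitors replicate 2 had more macrophage and fewer progenitor markers than ER-Hoxb8 progenitors replicate 3. In ER-Hoxb8 progenitors replicate 3 the 10 macrophage markers summed to 651 CPM and the 6 progenitor markers to 4090 CPM. In ER-Hoxb8 progenitors replicate 1 the sums were 16162 and 215 CPM, and in ER-Hoxb8 progenitors replicate 2 they were 60427 and 33.2 CPM. The 4-day cells had 43065 to 63207 CPM of macrophage markers, mostly Lyz2, and BM progenitors 6928 to 16450 CPM of progenitor markers, mostly Mpo. BM monocytes had 24771 to 28715 CPM of macrophage markers together with 5329 to 8557 CPM of progenitor markers. Neutrophil markers, with Ngp the most abundant, ran from 288 to 9697 CPM in BM progenitors and from 480 to 9091 CPM in BM monocytes.

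Of the pairs of groups in this marrow set, 3 were tested, and the 4-day cells were set against ER-Hoxb8 progenitors only. Isg15 was 0.25, 1.28 and 1.38 log2 CPM in BM progenitors, 1.33, 2.18 and 1.35 in BM monocytes, 3.23, 2.35 and 0.33 in ER-Hoxb8 progenitors and 2.87, 2.87 and 2.88 in the 4-day ER-Hoxb8 cells. Usp18 was 4.23, 4.50 and 4.62 in BM progenitors, 3.47, 4.96 and 3.99 in BM monocytes, 3.13, 3.68 and -0.71 in ER-Hoxb8 progenitors and 4.52, 3.82 and 3.95 in the 4-day cells. Ube2l6 was 7.27, 6.34 and 2.93 in ER-Hoxb8 progenitors and between 6.62 and 7.81 in all libraries of the other marrow groups. For Isg15, Ube2l6 and Usp18, ER-Hoxb8 progenitors replicate 3 was far below replicates 1 and 2. Uba7 ran from 5.29 to 7.43 and Herc6 from 4.21 to 5.53 over the whole set.

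By limma 0 of 5 members changed between BM monocytes and BM progenitors (0 at an unadjusted p below 0.05), where 13.8% of genes changed. It was 0 of 5 between the 4-day cells and ER-Hoxb8 progenitors (2 at an unadjusted p below 0.05, Usp18 and Herc6), where 0% of genes changed. Between ER-Hoxb8 and BM progenitors it was 0 of 5 (1 at an unadjusted p below 0.05), where 25.5% of genes changed, and Usp18 was lower in each ER-Hoxb8 library (-2.42, adjusted p = 0.0693). This last count was 1 without any one of the ER-Hoxb8 progenitor libraries, for a different gene each time. Without replicate 1 Ube2l6 was lower in ER-Hoxb8 progenitors (-2.53, adjusted p = 0.0412, 19.4% of genes changed), and without replicate 2 Usp18 was lower (-3.24, adjusted p = 0.0171, 28.3%). Without replicate 3 Isg15 was higher (1.82, adjusted p = 0.0128, 35.7%).

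Within each set the groups could be ordered by mean level. In the knockout set Adar1 KO macrophages came first for each member (8.07 for Isg15, 8.06 for Uba7, 9.27 for Ube2l6, 7.99 for Herc6 and 9.22 for Usp18) and NTC macrophages next. The 2 progenitor groups followed, and did not differ beyond their spread for Isg15, Uba7 and Herc6. For Herc6, NTC macrophages (4.57) and NTC progenitors (4.35) did not differ beyond it either. In the brain set the order for Isg15 was ER-Hoxb8 MLCs (8.08), BMD MLCs (3.13), ER-Hoxb8 macrophages (2.96), BMD macrophages (2.62) and microglia (2.26), and all neighbours after the first place lay within the larger SD of each pair. For Herc6 it was ER-Hoxb8 MLCs (7.49), ER-Hoxb8 macrophages (5.41), BMD macrophages (5.19), microglia (5.04) and BMD MLCs (4.86), again with each neighbour after the first place within the larger SD. Usp18 ran from ER-Hoxb8 MLCs (7.76) over BMD MLCs (4.37), ER-Hoxb8 macrophages (3.93) and BMD macrophages (2.98) to microglia (2.31), where only at the first step did the libraries of neighbours not overlap. Uba7 had ER-Hoxb8 MLCs (6.97) and ER-Hoxb8 macrophages (6.87) together at the top, and microglia (5.53) and BMD macrophages (5.49) together at the bottom, with BMD MLCs (6.44) between. For Ube2l6, BMD MLCs (7.68) and ER-Hoxb8 macrophages (7.31) lay within their spread, below ER-Hoxb8 MLCs (9.10).

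**Figure D5:**
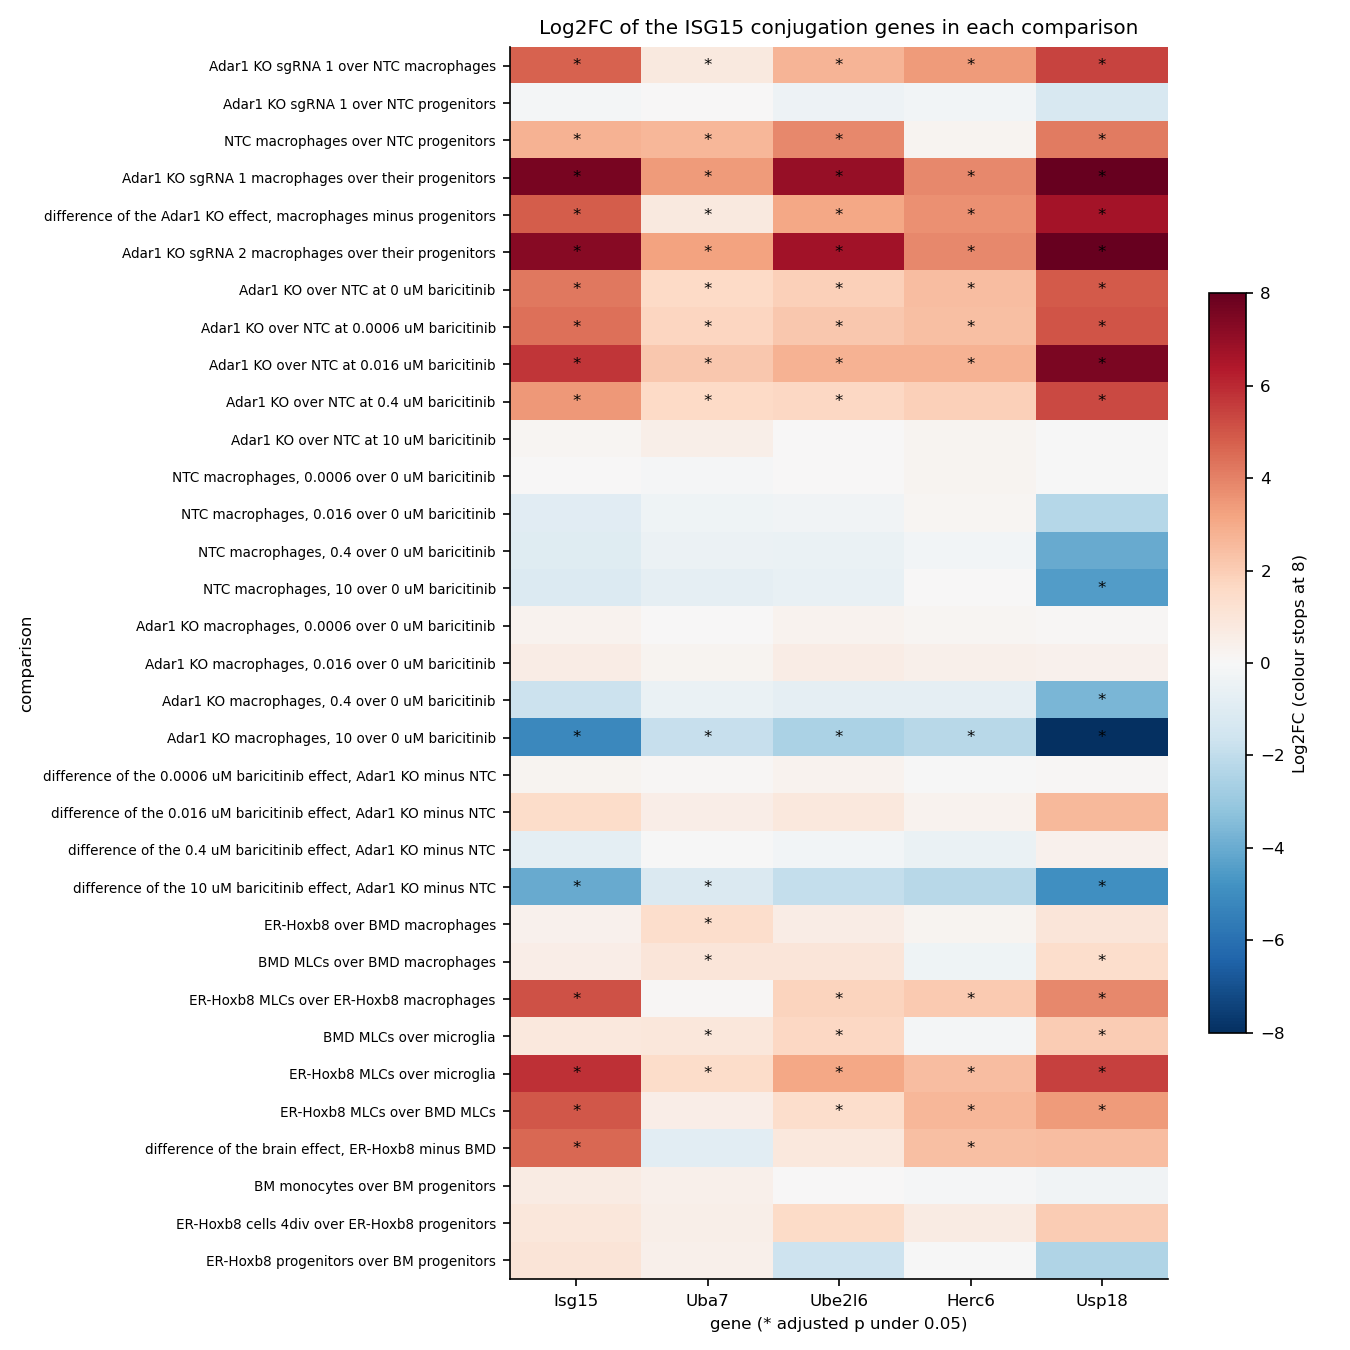
Log2FC of the 5 members (columns) in each of the 33 comparisons (lines of the grid), with red for higher, blue for lower and the colour stopping at 8. Marked cells passed an adjusted p of 0.05, and the members are red in Adar1 KO over NTC macrophages and blue for 10 over 0 µM baricitinib in Adar1 KO macrophages.

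The genes with levels most like those of a member were taken by Pearson's r over libraries of 1 set, as a description. Over the 33 baricitinib libraries, which share their genotypes and doses, these included Ube2l6 (r = 0.99), Phf11b (0.99), Irgm1 (0.989) and Phf11d (0.989) for Isg15. For Uba7 they were Pyhin1 (0.986), Lgals9 (0.983), Sp100 (0.982), Ifi202b (0.982) and Ifit1 (0.982), and for Ube2l6 they included Phf11b (0.996), Sp100 (0.993), Isg15 (0.99) and Phf11d (0.99). For Herc6 they were Igtp (0.991), Trim21 (0.985), Ifi35 (0.984), Rnf213 (0.984) and Ifi203 (0.981), and for Usp18 Irf7 (0.99), Oas1a (0.988), Xaf1 (0.986), Oasl2 (0.986) and AI607873 (0.986). Among the members themselves r ran from 0.896 (Herc6 with Usp18) to 0.99 (Isg15 with Ube2l6).

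Over the 27 libraries of the brain set, which share their cell types and place, the members were less alike, with r from 0.555 (Uba7 with Herc6) to 0.947 (Isg15 with Usp18). Among the genes most like Isg15 were Phf11a (0.965), BC023105 (0.964), Zbp1 (0.964) and Ifi47 (0.953), and most like Usp18 were Ifi47 (0.957), Zbp1 (0.956), Ifi27l2a (0.952), Isg15 (0.947) and Ifit3 (0.947). Genes most like Herc6 included Psme2 (0.937), Ifih1 (0.925), Isg15 (0.92) and H2-T22 (0.901). Ube2l6 was most like Cd52 (0.937), Pyhin1 (0.897), Prdx5 (0.895), C3 (0.891) and Samhd1 (0.891), and Uba7 most like Samhd1 (0.839), Sema4a (0.825), Map3k8 (0.806), Rnd1 (0.797) and Epsti1 (0.783).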

How the data were processed

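Bulk RNA was measured in 92 mouse libraries, grouped by label. The authors trimmed reads with fastp, assigned them with Kallisto 0.46.0 to mouse transcripts (GRCm39), summed them with tximport and scaled them by TMM in edgeR. The deposited values are log2 CPM by the authors, with a prior count taken as 2. Of 29957 lines 1 without a gene name was left out (0.00226% to 0.0584% of a library). Levels were fitted per normalization set with limma 3.58.1 in R 4.3.3 (group means, eBayes with trend, Benjamini-Hochberg adjustment), and tables made with Python 3.11.15, pandas 2.3.3, numpy 2.4.6, scipy 1.17.1 and matplotlib 3.10.9. The steps were tested on simulated data. Mean depth per set, estimated from the lowest value, was 13.7 to 40.6 M reads.

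Alternatives were another pseudocount (1), no filter, quantile normalization, the study's fold limit, fits of 2 groups, a replicate block and left-out libraries. Same-numbered replicates were checked as pairs. They paired in 2 of 27 comparisons, NTC with Adar1 KO progenitors (r 0.16 to 0.35) and ER-Hoxb8 progenitors with 4-day cells (r 0.23 to 0.43). Named are the members, Adar, genes of the lists of related and marker genes, and the 5 genes most like each member. Some of these genes are not reported here. Members and lists were chosen with earlier results of these data known. Promoters were read from RefSeq tables of GRCm38.p6, another build than that of the counts.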

Additional observations from a re-analysis of the deposited data

Results flagged for a closer look

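Among 42 checks of a gene in a group of 4 to 10 libraries, 2 libraries stood far from the others of their group. Ube2l6 in microglia replicate 5 was 7.33 log2 CPM, with the next library at 6.31. Usp18 in microglia replicate 8 was 0.28, with the next at 2.35. The gap to the next library was 0.53 of the range of the group for Ube2l6 and 0.81 for Usp18. Chance alone marks about 1 in 20 such groups, which for 42 checks is about as many as were found. That count does not weigh how far a library stood apart. Microglia replicate 8 also had the fewest genes above the lowest value among the microglia, 12891 against a median of 16159. The part of this in its Usp18 level was not tested.

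The other results listed here are differences between the effects of a contrast in separate groups, each by limma's test of the difference. The Adar1 KO effect was larger in macrophages than in progenitors by 4.85 for Isg15, 0.75 for Uba7, 3.09 for Ube2l6, 3.64 for Herc6 and 6.65 for Usp18, which entered that fit only through the macrophages. The Uba7 difference did not pass in 4 of 11 fits that left out 1 library. The effect of 10 µM baricitinib in Adar1 KO minus that in NTC macrophages was -4.06 for Isg15, -1.14 for Uba7 and -4.93 for Usp18. None of these 3 passed without a filter on low genes, and of 13 fits that left out 1 library Isg15 did not pass in 3, Uba7 in 13 and Usp18 in 9. The gain in the brain of ER-Hoxb8 over that of BMD cells was 4.62 for Isg15 and 2.41 for Herc6. Cultured ER-Hoxb8 cells and ER-Hoxb8 MLCs differ in labelled genotype as well as in place.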

How the results depend on the processing

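No count of members and no Log2FC of a changed member reversed under the alternatives. Counts of changed members moved by no more than 1.5 times in 28 of 33 comparisons under the study's fold limit, 29 of 33 without a filter, 32 of 33 with log2(CPM + 1), 32 of 33 with quantile normalization, 19 of 26 with only the 2 groups compared, and 205 of 236 fits that left out 1 library. Libraries were not left out in turn for either MLC group over microglia, nor for ER-Hoxb8 over BMD MLCs.

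With the fold limit the count was 3 for Adar1 KO over NTC at 0 µM, 2 at 0.4 µM, 0 for ER-Hoxb8 over BMD macrophages, 0 for BMD MLCs over BMD macrophages and 1 for BMD MLCs over microglia. With only the 2 groups compared it was 0 for Adar1 KO over NTC at 0.4 µM and 1 at 10 µM, 1, 2 and 4 for NTC macrophages at 0.016, 0.4 and 10 µM over 0 µM, 0 for Adar1 KO macrophages at 0.4 µM over 0 µM and 0 for ER-Hoxb8 over BMD macrophages. Without a filter it was 0 for NTC macrophages at 10 µM, 0 for Adar1 KO macrophages at 0.4 µM, 0 for the difference at 10 µM and 1 for BMD MLCs over BMD macrophages. With log2(CPM + 1) it was 0 for NTC macrophages at 10 µM, and with quantile normalization 1 for ER-Hoxb8 over BM progenitors. Quantile normalization shifted the median of all genes by more than 0.1 only for the difference of the Adar1 KO effect (-0.11). The causes were not tested.

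Chosen after seeing the data, leaving out Adar1 KO replicate 2 at 0.4 µM gave 2 (0.4 µM) and 1 (10 µM) for Adar1 KO over NTC, 1, 2 and 4 for NTC macrophages at 0.016, 0.4 and 10 µM, 1 and 5 for Adar1 KO macrophages at 0.016 and 0.4 µM, and 5 and 5 for the differences at 0.4 and 10 µM. Leaving out microglia replicate 8, also chosen after seeing the data, moved no count by more than 1.5 times, nor did the GFPHox, WTHox or WT microglia libraries alone or adding NTC macrophages replicate 2.

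When single libraries were dropped in turn, the count was 0 to 5 for Adar1 KO macrophages at 0.4 µM, 2 to 5 for Adar1 KO over NTC at 0.4 µM, 1 to 3 for BMD MLCs over BMD macrophages, 0 to 1 for ER-Hoxb8 over BMD macrophages, 0 to 1 for ER-Hoxb8 over BM progenitors, 0 to 0 for NTC macrophages at 10 µM, and 0 to 5 and 0 to 2 for the differences at 0.4 and 10 µM. With the replicate number as a block every count stayed within 1.5 times (33 of 33), and 1 call was lost, that of Uba7 in the difference at 10 µM (-1.14), where the numbers do not pair the samples.

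Depth limits Usp18 most, which lay near the lowest value in the progenitors of the knockout set and at 10 µM, so that its Log2FC there depends on the offset.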
